A study of Mus musculus with 24 samples.

Results

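The simple luminal keratins described here are Krt7, Krt8, Krt18 and Krt19, 4 genes of the 47643 in each count file. They were taken by name, with Ensembl identifiers matched to symbols: Krt7 (ENSMUSG00000023039), Krt8 (ENSMUSG00000049382), Krt18 (ENSMUSG00000023043) and Krt19 (ENSMUSG00000020911). All 4 were among the 10563 genes that passed the filter on low counts, and 54 keratin genes were in the files. The values come from organoids, epithelial structures cultured in Matrigel out of salivary gland stem and progenitor cells of C57BL/6 mice. Glands received radiation (IR) or a sham treatment and were collected at 14 or 90 days. Passage 1 and passage 2 cultures were sequenced, so the 8 groups were sham and IR at day 14 and day 90 in each passage, with 3 libraries each and 24 in all. The medium of all groups held EGF, FGF2, insulin, dexamethasone and the ROCK inhibitor Y-27632. The sources used here do not give the radiation dose, nor the age and sex of the mice. The labels number the libraries of a group without saying whether each stands for another animal or culture, and the p-values therefore speak only of library-to-library spread, which may be technical. Passage 2 was grown from passage 1, and the passages are therefore not independent. In such bulk samples fewer cells of a type and less RNA per cell cannot be told apart.

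Keratins are the intermediate filament proteins of epithelial cells, and each filament is built from pairs of a type II and a type I keratin. Krt7 and Krt8 are type II and Krt18 and Krt19 are type I. Krt8 and Krt18 are the partner pair of simple epithelia and of the luminal layer of ducts, Krt7 marks ductal and glandular epithelium, and Krt19 is a small type I keratin without a tail domain that is widely used as a marker of ducts. The basal layer of salivary ducts instead carries Krt5 and Krt14, and stratified and stressed epithelium adds Krt6 and Krt16.

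Krt8 and Krt18 are neighbours on mouse chromosome 15, with Krt78 and Eif4b as the protein-coding genes on either side. Krt7 lies on the same chromosome between Krt80 and Krt87. Krt19 lies on chromosome 11 between Krt15 and Krt9. The 250 bases before the start of Krt7, Krt8 and Krt18 are shown because these 3 genes moved together in the counts below. They come from RefSeq (GRCm38.p6), at chr15:101412153-101412402 (plus strand), chr15:102004343-102004592 (minus strand) and chr15:102027966-102028215 (plus strand), and are written 5′ to 3′ on the strand of the gene. Capitals mark matches, on either strand, to 6 motifs: the TATA box TATAAA, the GC box GGGCGG, the CACCC box CCACCC, the AP-1 element TGANTCA, the TEAD element GGAATG and the ETS core GGAAGT.
Krt7: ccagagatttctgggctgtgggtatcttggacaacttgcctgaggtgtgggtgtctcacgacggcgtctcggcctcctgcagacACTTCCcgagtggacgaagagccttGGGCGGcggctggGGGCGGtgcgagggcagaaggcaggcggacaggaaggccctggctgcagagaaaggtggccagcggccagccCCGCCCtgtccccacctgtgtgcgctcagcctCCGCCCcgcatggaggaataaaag
Krt8: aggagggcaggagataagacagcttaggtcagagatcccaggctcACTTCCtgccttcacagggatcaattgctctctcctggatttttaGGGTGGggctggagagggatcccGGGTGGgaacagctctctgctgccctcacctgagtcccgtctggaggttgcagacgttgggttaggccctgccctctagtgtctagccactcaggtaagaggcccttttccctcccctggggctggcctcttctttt
Krt18: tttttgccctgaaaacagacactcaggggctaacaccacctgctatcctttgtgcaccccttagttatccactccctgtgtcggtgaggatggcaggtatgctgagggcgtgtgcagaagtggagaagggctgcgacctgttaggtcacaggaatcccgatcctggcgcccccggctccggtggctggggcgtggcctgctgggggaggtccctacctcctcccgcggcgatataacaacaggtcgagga
The Krt7 window held 4 GC boxes and 1 ETS core. The Krt8 window held 2 CACCC boxes and 1 ETS core, and the Krt18 window held none of the 6. No match overlapped another. Among 32851 such windows 32.7% held the GC box, 28.1% the CACCC box, 19.7% the ETS core, 12.6% the TEAD element, 12.4% the TATA box and 6.75% the AP-1 element. The 3 windows were 66%, 58% and 60.4% G or C, against a median of 52.4% over all windows. A match is a run of letters in the window and not a shown binding site.

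Depth limited the members unequally. The libraries held 1151608 to 3189466 counts on genes. Krt7 had 123 to 1209 counts in a library, Krt8 70 to 466 and Krt18 281 to 1753, whereas Krt19 had 2 to 109. The libraries were made with a QuantSeq 3′ kit, in which a transcript gives tags at its 3′ end, so counts do not grow with length and levels between genes can be set side by side only as tags. On that scale the median over the 24 libraries was 436 CPM (counts in each 1e6, scaled by TMM factors) for Krt18, 330.2 CPM for Krt7, 125 CPM for Krt8 and 6.01 CPM for Krt19. Retroposed copies of keratin genes exist in the mouse genome, and the sources used here do not say how reads that match several places were counted, so the levels of Krt8 and Krt18 carry that uncertainty.

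**Figure D1:**
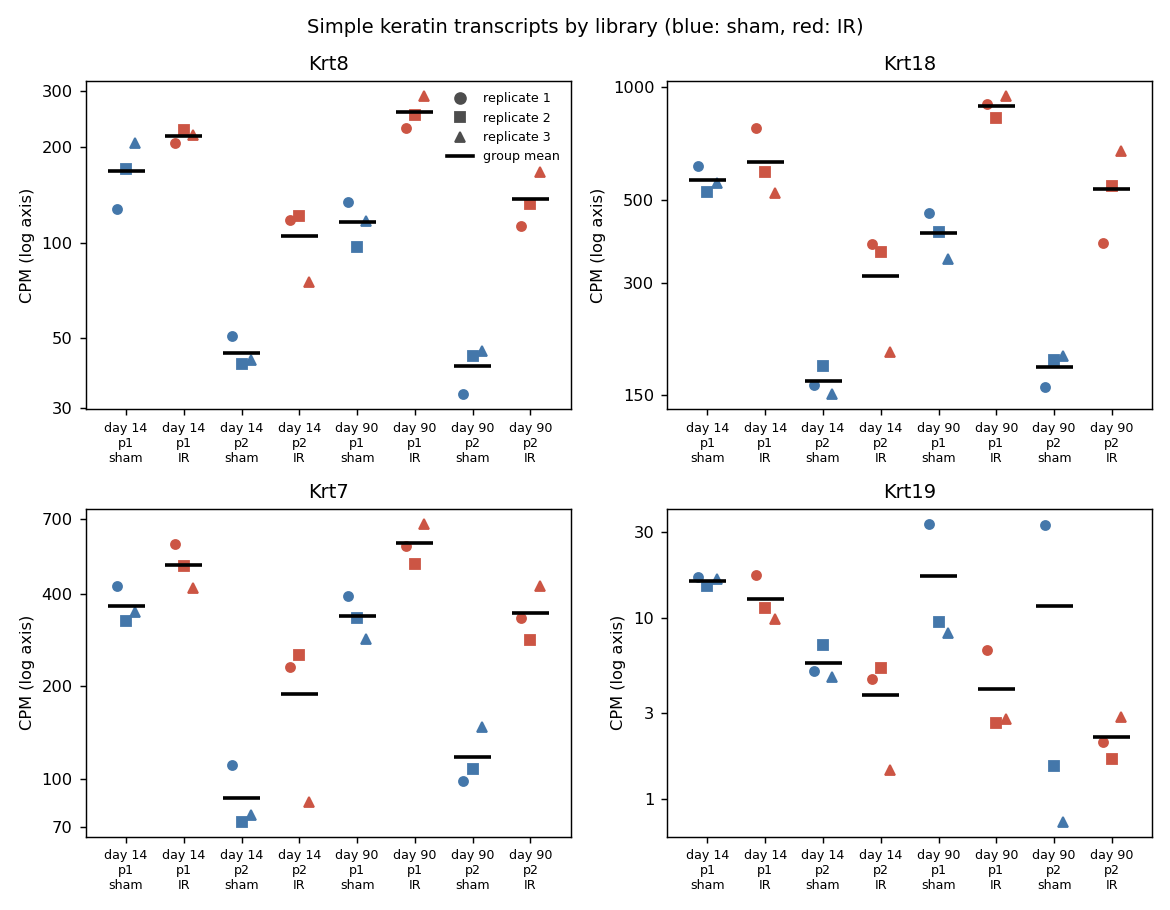
CPM of Krt8, Krt18, Krt7 and Krt19 in each of the 24 libraries (log axes), by day, passage (p1, p2) and treatment; symbols give the replicate number and black lines the group mean. Krt8, Krt18 and Krt7 shared a pattern of higher IR and lower passage 2 levels, and Krt19 was high in the 2 day 90 sham libraries numbered 1.

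Krt8 ranged over 6.32-fold between group means. From the highest group to the lowest its means were 258 ± 30.1 CPM (day 90, passage 1, IR), 217 ± 10.3 (day 14, passage 1, IR), 168 ± 39.2 (day 14, passage 1, sham), 137 ± 27.3 (day 90, passage 2, IR), 116 ± 18.9 (day 90, passage 1, sham), 105 ± 25.9 (day 14, passage 2, IR), 44.9 ± 5.01 (day 14, passage 2, sham) and 40.8 ± 6.61 (day 90, passage 2, sham), each a mean and SD of n = 3. Library ranges did not overlap between the first and the next group, between the day 14 passage 1 IR and sham groups, or between the day 14 passage 2 IR group and the 2 lowest groups. The other neighbours in that order overlapped.

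Krt18 and Krt7 put the 8 groups in nearly the same order. Krt18 was highest at 893 ± 61.2 CPM (day 90, passage 1, IR) and lowest at 163 ± 14.6 (day 14, passage 2, sham), with the passage 1 groups of day 14 at 631 ± 133 (IR) and 564 ± 45.6 (sham) between. The day 90 passage 2 IR group was at 535 ± 147, the day 90 passage 1 sham group at 406 ± 57.0, the day 14 passage 2 IR group at 313 ± 103 and the day 90 passage 2 sham group at 179 ± 18.1. Neighbouring groups of Krt18 overlapped except at the top of the order and between the day 14 passage 2 IR and the day 90 passage 2 sham groups. Krt7 ran from 584 ± 87.8 CPM (day 90, passage 1, IR) to 86.6 ± 21.1 (day 14, passage 2, sham). In between it stood at 497 ± 81.7 (day 14, passage 1, IR), 366 ± 50.5 (day 14, passage 1, sham), 347 ± 71.7 (day 90, passage 2, IR), 338 ± 54.6 (day 90, passage 1, sham), 189 ± 91.7 (day 14, passage 2, IR) and 118 ± 26.2 (day 90, passage 2, sham). Its neighbours overlapped except between the day 90 passage 1 sham and the day 14 passage 2 IR groups.

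Krt19 followed another order. All 4 sham groups stood above the IR group of the same day and passage by their means. It was at 17.02 ± 14.1 and 16.1 ± 0.908 CPM in the sham groups of passage 1 (day 90 and day 14), 12.8 ± 3.95 in the day 14 passage 1 IR group, 11.6 ± 18.2 in the day 90 passage 2 sham group and 5.65 ± 1.26 in the day 14 passage 2 sham group. The lowest were the IR groups at day 90 passage 1 (4.04 ± 2.30), day 14 passage 2 (3.78 ± 2.05) and day 90 passage 2 (2.20 ± 0.592). Every pair of neighbours in this order overlapped.

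The comparison of IR with sham asks what a gland's irradiation did to the organoids later grown from it. At day 90 and passage 2 the simple keratins Krt8, Krt18 and Krt7 rose about 3-fold in organoids of irradiated glands, and Krt19 did not pass the test. Krt8, the type II partner of simple epithelia, was at 33.2, 43.8 and 45.4 CPM in the sham libraries and at 113, 132 and 167 CPM in the IR libraries. Every IR library lay above every sham library. The log2 fold change was 1.75 (SE 0.21, adjusted p = 1.95e-04, edgeR quasi-likelihood test with Benjamini-Hochberg adjustment over all tested genes, as for the adjusted p of all genes below). Krt18, its type I partner, was at 158, 186 and 192 CPM in sham and at 382, 546 and 676 CPM in IR libraries (1.58, SE 0.22, adjusted p = 3.53e-04). Krt7, the second type II member, was at 98.8, 108 and 148 CPM in sham and at 335, 283 and 425 CPM in IR libraries (1.56, SE 0.29, adjusted p = 0.00308). The groups of both genes were apart in every library. Krt19 was at 32.6, 1.52 and 0.751 CPM in sham (109, 5 and 2 counts) and at 2.08, 1.67 and 2.84 CPM in IR libraries (7, 4 and 7 counts). Its groups overlapped, since 1 sham library stood far above all others and the other 2 lay below the IR mean. The fitted change of −2.41 (SE 0.89, adjusted p = 0.136) was not called, and it turned on single libraries. Without sham replicate 1 it was 0.86 in the other direction (adjusted p = 0.641), whereas without sham replicate 2 or 3 it was −2.93 and called (adjusted p = 0.0442 and 0.0481), as it was with no filter on low counts (−2.42, adjusted p = 6.28e-07). With no filter the fitted value was nearly that of the main fit, so its smaller p did not come from a larger change. Thus 3 of the 4 members were called higher, where 2.97% of all tested genes were. Over both directions that background is 520 genes, and it ranged from 137 (without IR replicate 3) to 1194 (without IR replicate 1) when 1 library was left out, and was 85 with only the compared groups fitted. These 3 calls held under every alternative run (adjusted p up to 0.0303).

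At day 90 and passage 1 Krt8 was the member that passed the test. It was at 134, 96.5 and 117 CPM in sham and at 230.5, 253 and 290.1 CPM in IR libraries, which did not overlap (log2 fold change 1.16, SE 0.20, adjusted p = 0.0392). Krt18 was at 462, 409 and 348 CPM in sham and at 904, 827 and 948 CPM in IR libraries. These did not overlap either, yet the change of 1.14 (SE 0.22, adjusted p = 0.0553) fell short of the threshold. Krt7 was at 394, 334 and 285 CPM in sham and 574, 502 and 676 CPM in IR libraries (0.79, SE 0.28, adjusted p = 0.229). Krt19 was at 33.3, 9.50 and 8.28 CPM in sham (59, 27 and 32 counts) and at 6.70, 2.64 and 2.78 CPM in IR libraries (13, 4 and 4 counts). Here the sham libraries all lay above the IR libraries, and the change of −1.92 (SE 0.88, adjusted p = 0.362) was not called. So 1 of 4 members was called higher, against 0.0284% of all tested genes. Leaving out sham replicate 2, sham replicate 3 or any single IR library ended the Krt8 call (highest adjusted p = 0.211), as did a covariate for each library's Gm42418 share (0.91, adjusted p = 0.467). That share of counts, on a ribosomal RNA-related gene, was 28.6%, 15.9% and 11.8% in sham against 29.0%, 26.9% and 27.0% in IR.

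At day 14 the changes were smaller in passage 1 than in passage 2 by their fitted values. In passage 1 the Krt8 libraries were at 128, 171 and 206 CPM (sham) and at 206, 227 and 218 CPM (IR), with adjoining ranges (0.36, SE 0.20, adjusted p = 0.529). Krt18 was at 614, 524 and 554 CPM in sham and at 779, 591 and 523 CPM in IR libraries (0.16, SE 0.22, adjusted p = 0.881). Krt7 was at 423, 326 and 349.6 CPM in sham and at 581, 491 and 418 CPM in IR libraries (0.44, SE 0.28, adjusted p = 0.627). The ranges of Krt18 and Krt7 overlapped. Krt19 was at 16.9, 15.1 and 16.4 CPM in sham and at 17.3, 11.3 and 9.85 CPM in IR libraries, where 1 IR library was as high as sham (−0.32, SE 0.77, adjusted p = 0.938). None of the 4 was called, against 0.293% of all tested genes called higher, and DESeq2 called 0 of the 3 members it tested and 123 of 10562 genes. DESeq2 gave no adjusted p for Krt19 in any comparison, so its counts are of 3 members throughout. At an unadjusted p under 0.05 the table held 1160 of 10563 genes, none of them a member.

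In passage 2 at day 14, Krt8 was at 50.6, 41.3 and 42.6 CPM in sham and at 118, 121 and 75.0 CPM in IR libraries. The groups did not overlap, and the change of 1.22 (SE 0.21, adjusted p = 0.0454) was called. Krt18 was at 159.7, 179.5 and 151 CPM in sham and at 382, 363 and 196 CPM in IR libraries (0.94, SE 0.22, adjusted p = 0.248). Krt7 was at 111, 72.6 and 76.2 CPM in sham and at 231, 253 and 84.0 CPM in IR libraries (1.12, SE 0.29, adjusted p = 0.406). For all 3 genes IR replicate 3 lay nearest to the sham libraries, and for Krt7 it lay among them. Krt19 was at 5.12, 7.09 and 4.74 CPM in sham and at 4.59, 5.31 and 1.45 CPM in IR libraries, 9, 12 and 11 against 8, 8 and 4 counts (−0.67, SE 1.00, adjusted p = 0.942). With 1 of 4 called, the background was 0.0189%. Leaving out 1 of 4 single libraries (sham 2, sham 3, IR 1 or IR 2) ended the Krt8 call (highest adjusted p = 0.502), as did a fit of only the compared groups (adjusted p = 0.382). Sham replicate 1 and IR replicate 3 stood apart from their groups in earlier work on these data. Without both, Krt7 (1.70, adjusted p = 6.63e-04), Krt8 (1.51, adjusted p = 0.00157) and Krt18 (1.17, adjusted p = 0.0118) were all called, where 155 of 10793 tested genes were. That choice drops the IR library nearest to sham and, for Krt7 and Krt8, the highest sham library. The larger changes therefore follow in part from the choice.

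Averaged over the 4 comparisons of IR with sham, Krt8 was higher by 1.12 on the log2 scale (SE 0.10, adjusted p = 1.99e-06), Krt7 by 0.98 (SE 0.14, adjusted p = 2.56e-04) and Krt18 by 0.95 (SE 0.11, adjusted p = 4.76e-05). Krt19 had a mean change of −1.33 (SE 0.45, adjusted p = 0.0574). These were 3 of 4 members called higher, against 6.09% of all tested genes, and the 3 calls held under every alternative run. The fit takes all libraries as independent, which the passages are not, so its p-values may be too small. The call of Krt19 sat at the threshold. It passed without day 90 passage 2 sham replicate 2 or 3 or day 90 passage 1 sham replicate 3 (adjusted p from 0.0213 to 0.0482). It also passed with total counts for scaling (adjusted p = 0.0435), with no filter (adjusted p = 1.42e-08), with the Gm42418 share of each library as covariate (−1.67, adjusted p = 0.0226) and with a replicate block (adjusted p = 0.0288). The fit with no filter gave more calls among all genes in each single comparison of IR with sham. It called 460 and 200 of 22785 genes at day 14 (passages 1 and 2) and 465 and 1044 at day 90. The main fit called 36, 2, 5 and 520 of 10563, in that order. Without both day 90 sham libraries numbered 1 the mean change of Krt19 was −0.30 (adjusted p = 0.483).

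**Figure D2:**
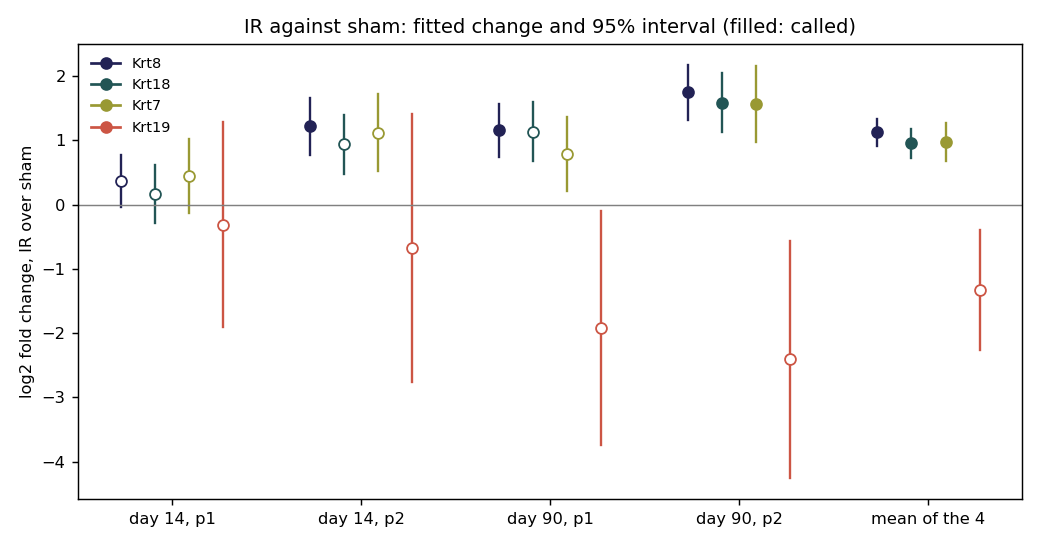
Log2 fold change of IR over sham for the 4 members in each day and passage and for the mean of the 4; points are the fitted values, bars their 95% intervals, and filled points passed the test. Krt8, Krt18 and Krt7 lay above 0 in all 4 strata and Krt19 below, with bars for Krt19 several times as long.

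Whether the IR effect differed between days or passages was tested by interaction, and none of the 4 members passed in any of the 4 tests. In passage 1 the IR effect was larger at day 90 than at day 14 by 0.79 for Krt8 (95% interval 0.21 to 1.37, adjusted p = 0.403) and by 0.97 for Krt18 (0.34 to 1.61, adjusted p = 0.385), and 0.0189% of all genes were called. In passage 2 the same difference was 0.53 for Krt8 (−0.07 to 1.14, adjusted p = 0.951) and 0.65 for Krt18 (0.00 to 1.29, adjusted p = 0.951), and 0.00947% were called. Between passages the IR effect of Krt8 differed by 0.85 at day 14 (0.25 to 1.45, adjusted p = 0.513) and by 0.59 at day 90 (0.01 to 1.18, adjusted p = 1.00). In these last 2 tests 0% of all genes were called with edgeR, 729 and 407 genes had an unadjusted p under 0.05, and DESeq2 called 20 and 3 genes. DESeq2 called 0 of its 3 tested members in all 4 interactions, and 24 and 2 genes in those of IR with day in passages 1 and 2.

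Krt8 and Krt18 kept a narrow ratio while their levels moved over more than 5-fold. There were 0.208 to 0.418 Krt8 counts for each Krt18 count in the 24 libraries (median 0.293), so that Krt18 gave 2.39 to 4.81 tags for each Krt8 tag. Taken by group, the ratio was 0.302 ± 0.0845 in sham and 0.355 ± 0.0803 in IR organoids at day 14 and passage 1, and 0.276 ± 0.0435 and 0.342 ± 0.0376 at day 14 and passage 2. At day 90 it was 0.287 ± 0.0501 in sham and 0.289 ± 0.0295 in IR organoids of passage 1, and 0.228 ± 0.0147 and 0.261 ± 0.0294 in passage 2 (SD, n = 3). The ratio was thus a little higher in IR in each stratum, and the sham and IR libraries were apart only at day 90 and passage 2. In a test of log2 ratios that permuted the treatment labels within the 4 strata of day and passage (exact, two-sided, 160000 arrangements, 21 tests in the family), the mean difference was 0.19 (p = 0.0647, adjusted p = 0.136). It was −0.15 for passage 2 against 1 (exact permutation, adjusted p = 0.257) and −0.25 for day 90 against 14 (exact permutation, adjusted p = 0.0653). The SD of the log2 ratio within groups was 0.254, and counting error alone gives 0.115. Over all 24 libraries the SD was 0.285 for Krt8 to Krt18, 0.297 for Krt7 to Krt18 and 0.376 for Krt7 to Krt8. The ratio of Krt7 to Krt18 was thus about as narrow, and a narrow ratio was not particular to Krt8 and Krt18.

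The ratio of Krt7 to its type I partner went both ways after irradiation. Krt7 gave 1.12 to 3.47 tags for each Krt8 tag and 0.405 to 0.875 for each Krt18 tag. The log2 ratio of Krt7 to Krt18 was higher in IR by 0.29 at day 14 and passage 1 and differed by −0.35 at day 90 and passage 1, with sham and IR libraries apart in both. In passage 2 it differed by 0.12 (day 14) and 0.0085 (day 90), with overlap. Its mean over these strata, 0.02 (exact permutation, adjusted p = 0.925), therefore averages opposite signs. The log2 ratio of Krt7 to Krt8 differed by −0.18 on average (exact permutation, adjusted p = 0.268), and its libraries overlapped in all 4 strata. Across passages Krt7 fell more than Krt18 (−0.28, exact permutation, adjusted p = 0.0455, lower in 3 of 4 strata). At day 90 Krt7 was higher relative to Krt8 than at day 14 (0.40, exact permutation, adjusted p = 0.0359, higher in 3 of 4 strata). Leaving out 1 library ended the passage call in 17 of 24 cases (adjusted p up to 0.102) and the day call in 11 of 24 (adjusted p up to 0.0640). The log2 ratio of summed type II (Krt7 and Krt8) to summed type I counts (Krt18 and Krt19) averaged between −0.38 and 0.16 over the 8 groups. Between passage 2 and 1 it differed by −0.26 and −0.38 in sham organoids of day 14 and day 90 and by −0.31 and −0.03 in IR organoids, given as values with no test because this sum is a score over the members.

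Krt19 parted from the other 3. A sham library of day 14 held 5.83 to 12.5 Krt8 counts for each Krt19 count, and an IR library of day 14 held 11.9 to 51.8. At day 90 this ratio was 4.03, 10.1 and 14.1 in passage 1 sham and 34.4, 95.8 and 104 in passage 1 IR libraries. In passage 2 it was 1.02, 28.8 and 60.5 in sham and 54.1, 79.0 and 58.7 in IR libraries. Thus 1 sham library held as many Krt19 as Krt8 counts, and the last sham library lay among the IR libraries. The log2 ratio of Krt19 to Krt8, taken on counts plus 0.5, differed between IR and sham by −0.76 and −1.91 at day 14 (passages 1 and 2) and by −2.96 and −2.41 at day 90. On this scale the groups overlapped at day 14 and passage 1 and not in the other 3 strata, by a small margin in the last. The mean difference was −2.01 (exact permutation, p = 3.75e-05, adjusted p = 3.5e-04, lower in 4 of 4 strata). Against Krt18 it was −1.82 and against Krt7 −1.83 (exact permutation, both adjusted p = 3.5e-04, lower in 4 of 4 strata). The test takes the 4 strata as independent, which the passages of a day are not, so these p-values may be too small. Within 1 stratum, 3 libraries against 3 can reach no p below 0.1 in such an exact permutation test. Without both day 90 sham libraries numbered 1 the mean difference of Krt19 to Krt8 was −1.45 (exact permutation, adjusted p = 2.62e-04). Less Krt19 and more Krt8 both enter this ratio. Without those libraries the mean IR change of Krt19 itself was −0.30 (edgeR, adjusted p = 0.483). That of Krt8 was 1.12 over all libraries. The SD of this log2 ratio within groups was 1.20, with 0.492 from counting error alone.

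**Figure D3:**
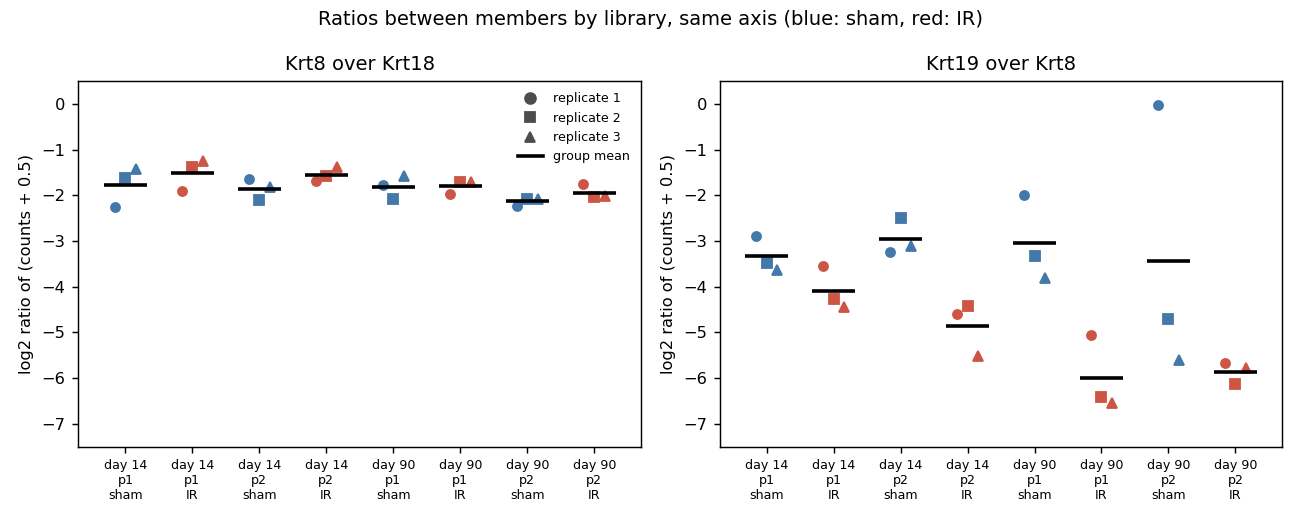
Log2 ratio of Krt8 to Krt18 counts (left) and of Krt19 to Krt8 counts (right) in each of the 24 libraries on the same axis, by day, passage and treatment; symbols give the replicate number and black lines the group mean. The left ratio stayed within 1.01 log2 units over all libraries and the right spread over 6.51. The ratio of Krt7 to Krt18, not drawn here, stayed within 1.11.

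Passage 2 organoids had less Krt8, Krt18 and Krt7 than passage 1 organoids. These comparisons use the same libraries as those of IR with sham. In sham organoids at day 14 the log2 fold changes were −2.08 for Krt7 (SE 0.30, adjusted p = 5.14e-04), −1.91 for Krt8 (SE 0.21, adjusted p = 7.8e-05) and −1.79 for Krt18 (SE 0.23, adjusted p = 2.29e-04). Every passage 2 library lay below every passage 1 library for these 3 genes, and 0.966% of all genes were called lower. Krt19 had −1.52 (SE 0.84, adjusted p = 0.544). In sham organoids at day 90 the changes were −1.52 for Krt7 (adjusted p = 0.00871), −1.50 for Krt8 (adjusted p = 5.29e-04) and −1.19 for Krt18 (adjusted p = 0.00837), with 0.918% of all genes called lower. Krt19 had −0.44 there (SE 0.72, adjusted p = 0.850). Without both day 90 sham libraries numbered 1 the calls of Krt7 and Krt18 were lost (adjusted p = 0.153 for each), and that of Krt7 also without the passage 2 one alone (adjusted p = 0.0534). Krt19, by contrast, was called lower without both (−2.85, adjusted p = 0.0276) and without the passage 2 one alone (−3.70, adjusted p = 0.00987), and was at 0.42 (adjusted p = 0.905) without the passage 1 one alone. Without passage 2 sham replicate 2 or 3 it was at 0.088 or 0.085. In IR organoids at day 14 Krt7 (−1.40, adjusted p = 0.0197), Krt8 (−1.06, adjusted p = 0.0131) and Krt18 (−1.01, adjusted p = 0.0231) were called, and 0.985% of all genes. Those 3 calls were all lost without passage 1 IR replicate 1 or 2 or passage 2 IR replicate 3 (adjusted p from 0.0530 to 0.204). In IR organoids at day 90 none of the 4 passed, Krt8 at −0.91 (SE 0.20, adjusted p = 0.0995) being nearest, and 0% of all genes were called with edgeR. DESeq2 called 42 genes there, 1 of them a member, and 1066 genes had an unadjusted p under 0.05.

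Between day 14 and day 90 no member passed in any of the 4 comparisons. In passage 1 sham organoids Krt8 was at −0.54 (SE 0.20, adjusted p = 0.353) and Krt18 at −0.47 (SE 0.22, adjusted p = 0.486). No gene of the table was called there with edgeR (0%), 1025 had an unadjusted p under 0.05 and DESeq2 called 52. In passage 2 sham organoids Krt8 was at −0.14 (SE 0.21, adjusted p = 0.828), against 0.426% of all genes. In passage 1 IR organoids Krt18 was at 0.50 (SE 0.22, adjusted p = 0.648), against 0.170%. In passage 2 IR organoids Krt7 was at 0.89 (SE 0.28, adjusted p = 0.154) and Krt18 at 0.77 (SE 0.22, adjusted p = 0.105), against 0.435%. DESeq2 called 0 of its 3 tested members in 3 of these comparisons and 1 in passage 2 IR organoids. Over all genes it called 117 of 10562 in passage 2 sham, 35 in passage 1 IR and 168 in passage 2 IR organoids. The 95% interval of Krt7 in the last comparison was 0.30 to 1.47, so these fits do not show that levels at the 2 days were alike.

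Over the 24 libraries the log2 CPM of Krt7, Krt8 and Krt18 varied together. Pearson's r was 0.962 for Krt7 and Krt18 (Spearman's rho 0.938), 0.956 for Krt8 and Krt18 (rho 0.926) and 0.929 for Krt7 and Krt8 (rho 0.906). Each had an adjusted permutation p of 2e-05 from 100000 draws, over 6 pairs. Without the 2 libraries farthest from the median r was 0.960, 0.948 and 0.911. The libraries fall into 8 groups that differ in these genes, so r was also taken on deviations from the group means. It was then 0.779 for Krt7 and Krt18 (adjusted permutation p = 0.0274), 0.565 for Krt8 and Krt18 and 0.600 for Krt7 and Krt8 (adjusted permutation p = 0.0862 for each). Krt19 had r of 0.230 with Krt7 (rho 0.270), 0.156 with Krt8 (rho 0.193) and 0.169 with Krt18 (rho 0.155), with adjusted permutation p of 0.416, 0.468 and 0.468. Without the 2 libraries farthest from the median these r were 0.260, 0.410 and 0.345 (adjusted permutation p = 0.241, 0.0889 and 0.138), and day 90 passage 2 sham replicate 1 was among those left out for Krt8 and Krt18.

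Genes most like each member were taken by Pearson's r of log2 CPM over the 24 libraries, among 7747 genes with a mean of at least 10 CPM, and are given as a description with no test, since all genes share the libraries. Tspan1, a tetraspanin, was nearest to Krt7 (r = 0.964), followed by Slc4a4, a sodium bicarbonate cotransporter, Npnt, a matrix protein, Tpm1, a tropomyosin, and Celf2, an RNA-binding protein. Sorbs2, an adaptor of the actin cytoskeleton, was nearest to Krt8 (r = 0.952) and to Krt18 (r = 0.969). Krt8 was followed by Anxa3, Slc4a4, Cryab and Mal2, and Krt18 by Fn1, Slc4a4, Thbs1 and Cldn3. Slc4a4 was among the first 5 for all 3 genes. Krt19 had lower values, with Stk39 first (r = 0.711), then Cmas, Crybg3, Brip1 and Mrpl42, none of which was among the first 5 of the other members.

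Within the keratin family, the keratins called higher after irradiation at day 90 and passage 2 and over the mean of the 4 comparisons were Krt7, Krt8 and Krt18. The basal keratins Krt14 and Krt5 and the stress keratin Krt6a had the most tags, with means of 3169.7, 1699.9 and 1410.4 CPM over the 24 libraries, followed by Krt18 and Krt17. Of the 11 other keratin genes tested, 0 were called higher and 4 lower at day 90 and passage 2, where 1.95% of all genes were called lower. Krt6a went from 2621 ± 933 to 463 ± 350.1 CPM (−2.50, SE 0.45, adjusted p = 0.00268). Krt6b went from 253 ± 283 to 1.79 ± 2.14 CPM (−6.93, SE 1.46, adjusted p = 0.00760), though Krt6a and Krt6b are near-identical and may share reads. Krt16, the type I partner of the Krt6 keratins, changed by −4.06 (SE 1.03, adjusted p = 0.0220), and Krt15, the basal keratin next to Krt19 on chromosome 11, by −3.08 (SE 0.78, adjusted p = 0.0221). Krt14 (−0.99, adjusted p = 0.0965) and Krt5 (−1.38, adjusted p = 0.0705) did not pass there. None of the 11 was called in the other 3 comparisons of IR with sham, where fitted values could point the other way (Krt6a 1.50 at day 14 and passage 1, SE 0.44, adjusted p = 0.155). Over the mean of the 4 comparisons 4 were lower, namely Krt5, Krt6a, Krt6b and Krt15, and 4.91% of all genes were.

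**Figure D4:**
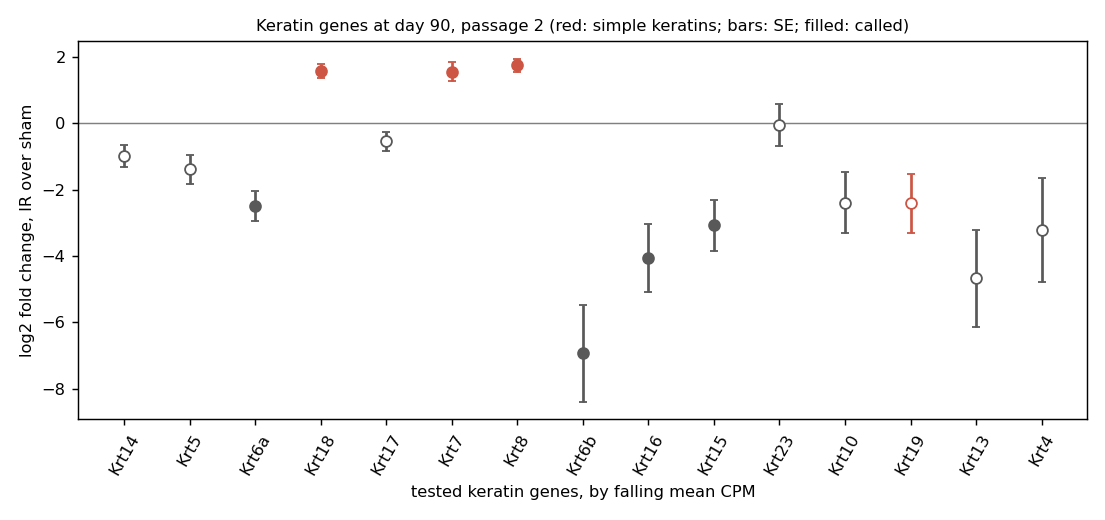
Log2 fold change of IR over sham at day 90 and passage 2 for the 15 tested keratin genes, in order of mean CPM; bars are SE, filled points passed the test, and simple keratins are red. Krt18, Krt7 and Krt8 lay above 0, and the 11 other keratins and Krt19 had fitted values below 0.

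The 4 simple keratins together made up 2.31% to 43.2% of all keratin counts in a library. Their share was 17.2 ± 1.19% in sham and 14.8 ± 3.39% in IR organoids at day 14 and passage 1 (SD, n = 3). At day 14 and passage 2 it was 2.55 ± 0.201% in sham and 8.24 ± 2.69% in IR organoids. It was 10.7 ± 2.54% and 32.1 ± 9.98% at day 90 and passage 1, and 3.83 ± 1.25% and 26.7 ± 12.7% at day 90 and passage 2. The libraries of the 2 treatments overlapped at day 14 and passage 1 and were apart in the other 3 strata. The share is a ratio, so both more simple keratin and less of the other keratins enter it, and it was given no test.

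**Figure D5:**
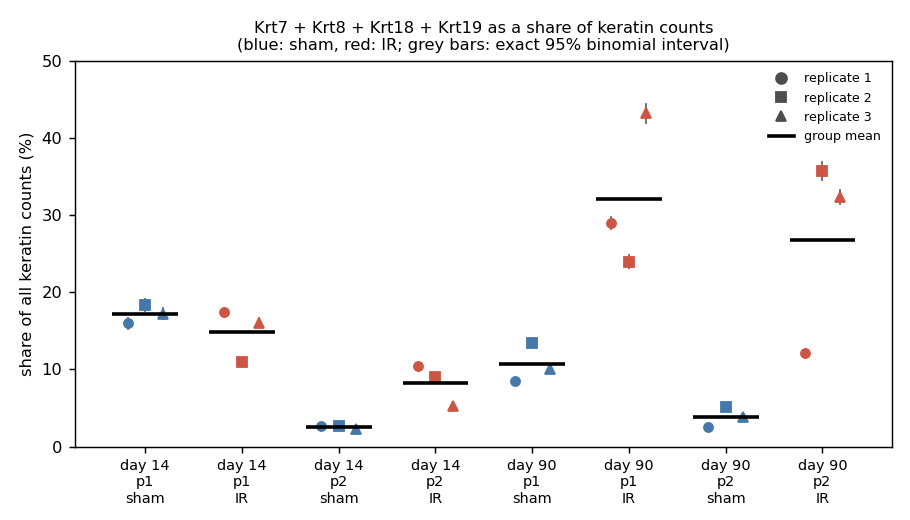
Share of Krt7, Krt8, Krt18 and Krt19 in all keratin counts of each library (%), by day, passage and treatment; grey bars are exact 95% binomial intervals, which cover counting error only, and black lines are group means. IR libraries reached 43.2% at day 90, and sham libraries of passage 2 stayed between 2.31% and 5.08%.

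Part of a list of luminal duct genes other than keratins rose with the simple keratins at day 90 and passage 2. Of 21 tested luminal duct genes other than keratins, 8 were called higher and 0 lower, where 2.97% of all tested genes were higher and 1.95% lower, with a median log2 fold change of 0.68 against 0.01 over all tested genes. This list and those below were chosen with earlier results of these data known, so their counts are a description and no independent support. Whether the listed genes, Slc12a2 among them, are specific to luminal duct cells was not tested. Scnn1a, which encodes part of the ENaC sodium channel, went from 4.25 ± 1.08 to 27.5 ± 16.5 CPM (2.67, SE 0.44, adjusted p = 0.00150). Tfcp2l1, a transcription factor of ductal epithelium, went from 57.2 ± 16.7 to 387 ± 216 CPM (2.75, SE 0.52, adjusted p = 0.00389), and Slc12a2, the sodium-potassium-chloride cotransporter, from 300.1 ± 39.3 to 706 ± 112 CPM (1.23, SE 0.23, adjusted p = 0.00424). Over the mean of the 4 comparisons 10 of the 21 were higher and 0 lower, against 6.09% and 4.91% of all genes. In passage 2 against 1, 3 and 5 of them were called lower in sham organoids of day 14 and day 90, against 0.966% and 0.918% of all genes, and 0 higher.

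Of 17 tested basal duct genes other than keratins 2 were lower and 0 higher at day 90 and passage 2 (median −0.39), where 1.95% of all genes were lower, the background for the next lists too. They were Trp63, the basal transcription factor p63 (−1.14, SE 0.25, adjusted p = 0.00939), and Sfn, the 14-3-3 sigma protein (−1.07, SE 0.30, adjusted p = 0.0438). Of 14 tested squamous differentiation genes other than keratins 10 were lower and 0 higher (median −2.91), among them the calprotectin subunits S100a8 (−4.15, SE 0.56, adjusted p = 3.45e-04) and S100a9 (−4.68, SE 0.77, adjusted p = 0.00133) and the cornified envelope protein Ivl (−2.35, SE 0.42, adjusted p = 0.00268). At day 14 and passage 1, in contrast, 2 squamous genes were called higher and 0 lower, against 0.293% of all genes called higher. Of 21 tested genes for proteins that anchor or bind keratin filaments, 5 were lower and 0 higher at day 90 and passage 2. These included the desmosomal cadherins Dsg3 (−1.93, SE 0.33, adjusted p = 0.00175), Dsc2 (−1.41, SE 0.34, adjusted p = 0.0168) and Dsc3 (−1.06, SE 0.27, adjusted p = 0.0214). Sfn is on this list as well as on the basal list. Of the 5 tested other intermediate filament genes, Vim, Nes and the lamin genes Lmna, Lmnb1 and Lmnb2, 0 were called in any of the 4 comparisons or their mean.

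The summed levels of genes listed as markers of other cell types moved with these groups in part. At day 90 and passage 2 the summed level of 24 squamous genes was 734 to 2645 CPM in sham and 259.6 to 377 CPM in IR libraries, with 2 of the 24 at 0 in all libraries. The sum of 18 basal genes was 4336 to 5337 CPM in sham and 3239 to 4665 CPM in IR libraries, and that of 25 genes listed as luminal 4049 to 4874 and 5417 to 7639.9 CPM. Cdh1 had the highest mean of the 25, at 1267 CPM over the 24 libraries. The sum of 12 acinar genes was 307 to 1226 CPM in sham and 151 to 267 CPM in IR libraries. Over the 24 libraries the acinar means were 486 CPM for Pip, 36.4 CPM for Aqp5 and 9.66 CPM for Prol1. Each of the others was at most 2.72 CPM, so the sum was mostly Pip, and 4 of the 12 passed the filter on low counts. At day 90 and passage 2 Dcpp1 (6.58 ± 8.34 CPM in sham) had no count in IR, and it has near-identical copies. Over all 24 libraries 7 fibroblast genes summed to at most 3.85 CPM, with Col3a1 and Pdgfrb at 0, and 4 endothelial genes to at most 2.06 CPM. The sum of 7 myoepithelial genes was 28.5 to 37.8 CPM in sham and 4.33 to 8.91 CPM in IR libraries at day 14 and passage 1, and 15.9 to 18.5 against 1.99 to 11.6 CPM in passage 2. At day 90 it was 7.33 to 15.1 against 4.63 to 6.70 CPM in passage 1 and 6.01 to 10.6 against 4.18 to 16.2 CPM in passage 2. The sum of 6 immune genes, Lyz2 having the highest mean, was 8.10 to 9.24 CPM in sham and 17.3 to 51.0 CPM in IR libraries at day 14 and passage 1, and 0.861 to 1.18 against 2.17 to 7.30 CPM in passage 2. Its libraries overlapped at day 90 (1.13 to 18.7 against 4.12 to 34.8 CPM in passage 1, 1.50 to 3.59 against 0.406 to 2.98 CPM in passage 2). Over the 24 libraries the immune means were 6.85 CPM for Lyz2 and 2.11 CPM for Cd68, and at most 0.271 CPM for each of the others. Only 1 of the 6 passed the filter on low counts, so this sum does not show that immune cells were present. The part of the squamous, basal, acinar, myoepithelial and immune levels in the keratin differences was not tested.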

How the data were processed

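RNA was made into 3′ tag libraries with the QuantSeq kit, per the labels' protocols. What the authors deposited is a file of raw gene counts for each library, not normalized. Of software and genome, bcl2fastq and GRCm39 are named, per the submitters' processing notes. The sources used here give no aligner, counter, annotation or strand setting. Symbols were matched by identifier to an annotation of another build for 47224 of 47643 genes, so no GRCm39 coordinates are printed. Reads on no gene (11.5% to 26.5% of a library) stayed out of library sizes.

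The main test was edgeR's quasi-likelihood test (version 4.0.16, R 4.3.3) on the counts: TMM factors, filterByExpr on the 8 groups (10563 genes left), 1 mean per group over all 24 libraries, 17 comparisons, Benjamini-Hochberg over all tested genes, two-sided, called at an adjusted p under 0.05. The SE is the absolute log2 fold change over the square root of F. CPM carry TMM factors. Ratios of 2 members used counts plus 0.5 in exact stratified permutation tests, which take the strata as independent. Counting intervals cover counting error only. The script was tested on simulated counts drawn from the real means and library sizes.

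The text names the 4 members, called keratins, up to 3 called genes per list, the 5 genes most like each member and chromosomal neighbours. The members and lists were chosen with earlier results of these data known. No pair of replicates was a duplicate (chi-square per degree of freedom 2.20 to 29.5). Alternatives were DESeq2 1.42.0, other factors and filters, only the compared groups, a replicate block, Gm42418 (a ribosomal RNA-related gene) as covariate, ribosomal genes left out, and libraries left out.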

Additional observations from a re-analysis of the deposited data

How the results depend on the processing

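The 373 repeats cover the number of members called and also the IR tests of the ratios Krt8 to Krt18 and Krt19 to Krt8. None of the ratio repeats changed direction or crossed the threshold. The number of members called moved beyond 1.5 times, or from or to 0, in 36 repeats. This rule does not apply to the ratio repeats among the 373, so the share of repeats of that number that moved was larger than 36 of 373. For IR at day 14 and passage 2 it moved from 1 to 3 with no filter, DESeq2 or the 2 libraries apart left out, to 2 with the Gm42418 share as covariate and to 0 with only the compared groups. The calls over all genes moved as well, from 2 of 10563 in the main fit. They were 200 of 22785, 17 of 5648, 155 of 10793, 5 of 10563 and 0 of 9340, in that order. For IR at day 90 and passage 1 it moved from 1 to 4 with no filter, 2 with total counts, only the compared groups, DESeq2 or both day 90 sham libraries numbered 1 left out (chosen after seeing the data), and 0 with the Gm42418 covariate. Here the main fit called 5 of 10563 genes. The others called 465 of 22785, 20 of 10563, 12 of 9482, 86 of 8309, 29 of 10767 and 0 of 10563, in that order. For passage at day 14 in IR it moved from 3 to 1 without the 2 libraries apart and 0 with only the compared groups. There the main fit called 146 of 10563 genes, and these called 44 of 10793 and 24 of 9424. For passage at day 90 in IR it was 3 with no filter and 1 with DESeq2. Over all genes these called 369 of 22785 and 42 of 10562, against 0 of 10563 in the main fit. For day in passage 1 IR it was 1 with no filter, and in passage 2 IR 2 with no filter or total counts and 1 with DESeq2 or the Gm42418 covariate. Over all genes 180 of 22785 were called in the former, against 18 of 10563 in the main fit. In passage 2 IR these settings called 560 of 22785, 94 of 10563, 168 of 10562 and 97 of 10563, against 46 of 10563. Leaving out each library gave 0 to 3 (IR, day 14, passage 2), 0 to 2 (IR, day 90, passage 1), 0 to 3 (passage, day 14, IR) and 0 to 1 (day, passage 2, IR). Over all genes the same omissions gave 0 to 38, 0 to 25, 10 to 278 and 0 to 372 calls.

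The replicate numbers are those of the sample titles. Those in some file names of day 90 IR libraries differ, and pairing by them was not tried. The shared title numbers did not pair the libraries: in 0 of 12 pairs of groups did every same-numbered pair correlate above 0.1 (r −0.44 to 0.52). With the replicate block the count for IR at day 14 and passage 2 was 0 (Krt8 1.22, adjusted p = 0.0624), and that for the mean IR effect 4, since Krt19 passed (−1.29, adjusted p = 0.0288). In that fit 1 and 1225 of 10563 genes were called in these comparisons. The sign flips of same-numbered pairs left Krt7 to Krt18 over passage (adjusted p = 0.0628) and Krt7 to Krt8 over day (adjusted p = 0.0564) short of the threshold.

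The changes that turned sign were small or of Krt19. For day in passage 1 sham, Krt7 was 0.10 with total counts and 0.16 with the Gm42418 covariate, and Krt19 0.17, 0.71, 0.016 with no filter and 0.040 with DESeq2. For day in passage 2 sham, Krt8 was 0.11 with total counts, 0.17 with the covariate and 0.018 without the libraries numbered 1. With the covariate Krt7 was −0.070 for IR by day in passage 1, and Krt19 0.19 and 0.014 for passage at day 90 in sham and IR. Without the 2 libraries apart Krt7 was −0.15 for IR by day in passage 2, Krt19 0.087 for IR by passage at day 14, and Krt19 to Krt7 over passage 0.045. Without the libraries numbered 1 Krt19 was 0.87 for IR at day 90 and passage 2, 1.53 for IR by day in passage 2, 1.93 for IR by passage at day 90 and −2.18 for day in passage 2 sham. With counts plus 5 the ratios of Krt19 to Krt8, Krt18 and Krt7 over passage were 0.15, 0.017 and 0.29. On deviations from group means r of Krt8 and Krt19 was −0.080. Leaving out each library gave ranges of −0.017 to 0.28 (Krt18, IR, day 14, passage 1), −2.93 to 0.86 (Krt19, IR, day 90, passage 2), −0.86 to 0.35 and −2.18 to 1.61 (Krt19, day, passage 1 and 2 sham), −0.21 to 0.018 (Krt8, day, passage 2 sham), −3.70 to 0.42 (Krt19, passage, day 90 sham), −2.26 to 1.53 (Krt19, IR by day, passage 2), and −0.69 to 0.14 and −1.34 to 2.78 (Krt19, IR by passage, day 14 and 90). For ratios they were −0.035 to 0.068 (Krt7 to Krt18, IR), −0.59 to 0.11 and −0.45 to 0.26 (Krt19 to Krt8 and to Krt7, passage), and −0.024 to 0.063 (type II to type I, day). The cause of these changes was not tested. Krt19 had 2 to 109 counts in a library, against 70 or more for the other members.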
